A study of Bos taurus with 18 samples.

Results

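The aquaporins are membrane channels that let water, and in some members glycerol, urea or other small molecules, cross cell membranes down their gradient. The epididymis is the long coiled duct that sperm pass after the testis, maturing and then waiting there. Water is withdrawn from its lumen and sperm become concentrated on the way from the caput (head) through the corpus (body) to the cauda (tail). Most of what is known of where aquaporins sit in this duct comes from rodents. Here 9 aquaporin genes were followed along the bovine duct: the water channels AQP1, AQP2, AQP4, AQP5 and AQP8, the glycerol-conducting AQP3, AQP7 and AQP9, and AQP11, an intracellular relative. They were taken by gene symbol from 18010 genes measured by a probe set naming 1 gene. Each of the 9 had exactly 1 such probe set, so no choice between probe sets was needed.

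The tissue came from 6 Holstein bulls, 51 to 71 months old, of which 3 had high and 3 medium-low fertility. Fertility was scored from the share of inseminated cows not returning to service by 56 days. The epididymides were collected at slaughter, kept on ice and cut into caput, corpus and cauda, and small pieces were frozen. This gave 6 groups of 3 arrays (high caput, high corpus, high cauda, medium-low caput, medium-low corpus, medium-low cauda), with no treatment, transgene or other manipulation in any group. The labels number the arrays of a group 1 to 3 but do not say that a number marks the same bull in each segment. A piece of epididymis also holds muscle, vessels, connective tissue and sperm, so fewer cells of a type and less RNA per cell cannot be told apart.

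Every value below is a log2 signal, on which a difference of 1 is a 2-fold difference in signal. Signals of different probe sets do not order the genes by RNA amount, so each gene is compared only with itself. No detection call comes with the values. A signal below 5.83, the 25th percentile of all values, is called dim here and may be background. A difference passed when limma's p, adjusted after Benjamini and Hochberg across the 26773 probe sets, was under 0.05. Standard errors (SE) and 95% intervals are the model's, and standard deviations (SD) are between arrays. Where 3 arrays lie wholly above 3 others, their rank order alone cannot give a p under 0.1. Between segments inside 1 fertility group, the share of all probe sets without overlap was not counted, so such separations are described only.

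Correlation over the probe sets between replicate arrays was 0.978 to 0.990 in 5 groups and 0.951 to 0.981 in medium-low caput. Of secreted proteins of the caput, GPX5 and LCN6 among them, 7 of 7 measured fell in both corpus and cauda. Of all probe sets 13.7% and 15.1% fell. The list was chosen with earlier results of these data known, so it is no independent check of the segments. Without the 2 arrays named next, its median difference from caput was -4.42 in corpus and -4.88 in cauda. The mean signal of these 7 genes was 11.76 to 12.15 on 4 caput arrays and 13.56 and 13.58 on medium-low caput replicates 1 and 2, which stand apart from the other caput arrays. Where leaving out both changes a call, turns a direction or moves a value by more than 1.5-fold, the value without them is often given. A result shown without such a value may still depend on them. Medium-low caput then has 1 array left.

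**Figure D1:**
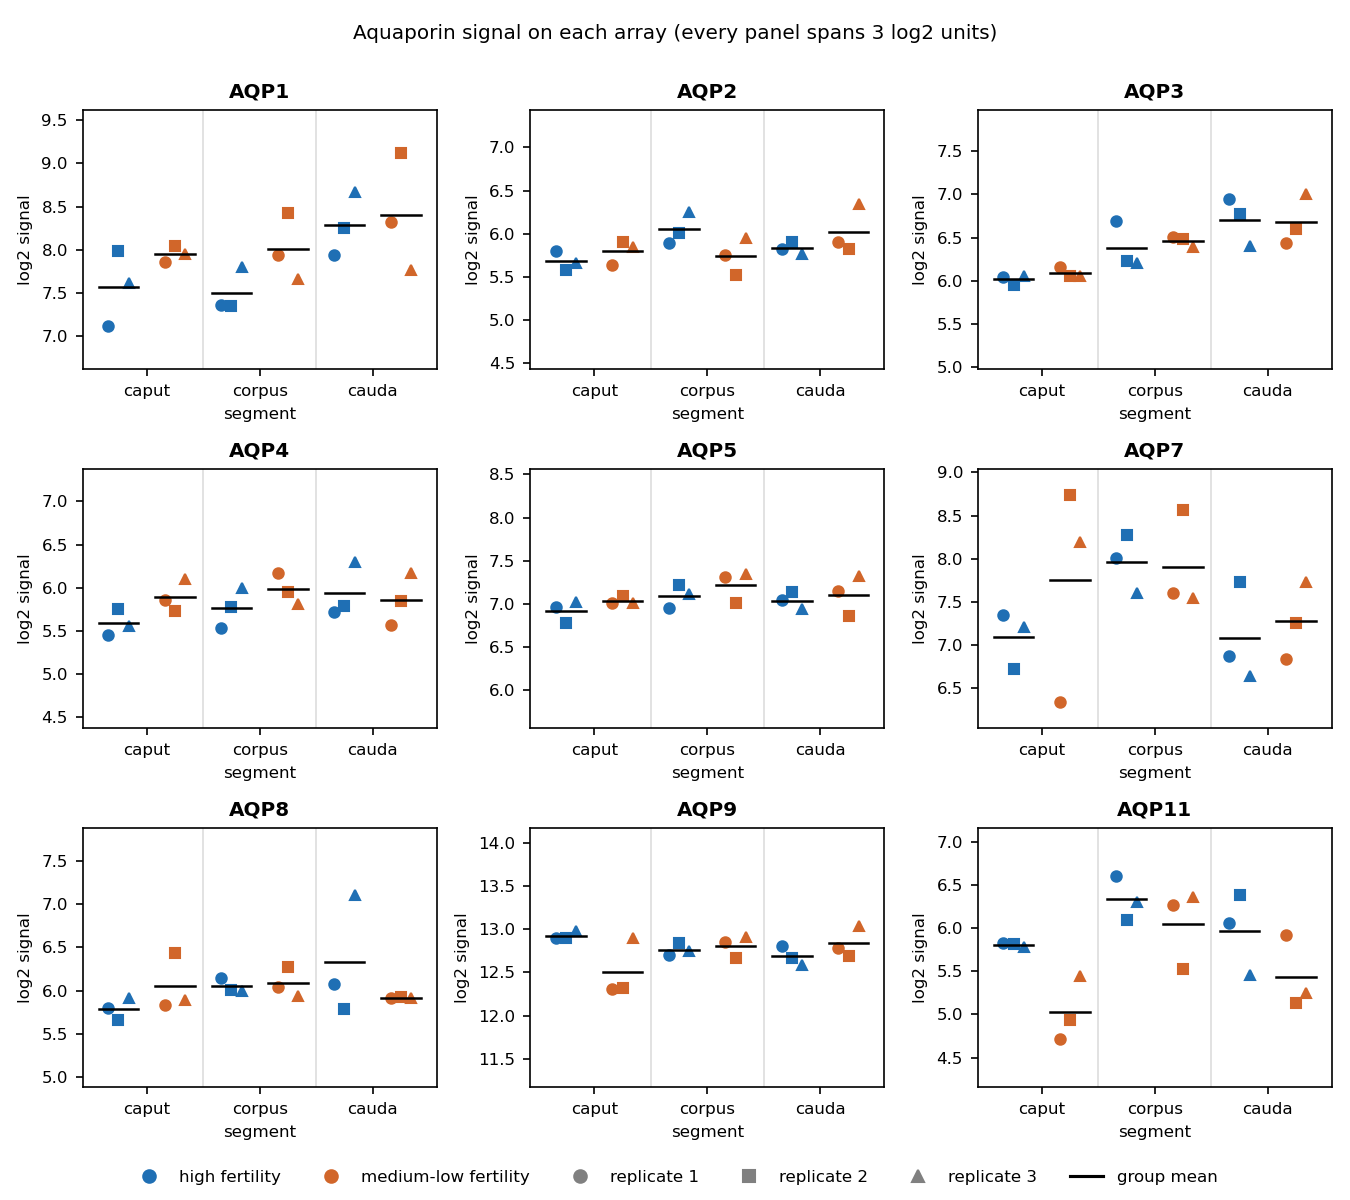
Log2 signal (vertical axis) of the 9 aquaporins on each of the 18 arrays, by segment and fertility group, with replicate numbers as symbols and group means as bars; each panel spans 3 log2 units around its own middle. AQP3 sits higher in corpus and cauda than in caput, AQP9 varies little outside medium-low caput replicates 1 and 2, and AQP7 spreads most within a group, from 6.34 to 8.74 in medium-low caput.

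Among the 9 aquaporins, AQP3 rose from caput to cauda and, by less, from caput to corpus, and AQP11 rose from caput to corpus. None fell past the threshold. Between corpus and caput 2 of 9 passed, both higher, where 33.2% of all probe sets passed and 19.5% passed as higher. Neither of these calls held without medium-low caput replicates 1 and 2, and every caput value of AQP11 was dim. Between cauda and caput 1 of 9 passed, higher, where 32.2% of all probe sets passed and 17.2% as higher. Between cauda and corpus limma called 0 of 9, with 24.3% of all probe sets called, and 4 of 9 had an unadjusted p under 0.05 (AQP1, AQP3, AQP7 and AQP11), against 35.6% of all probe sets. The members' median difference was 0.16 between corpus and caput and 0.19 between cauda and caput, against 0.06 and 0.03 over all probe sets. The aquaporin differences were small: each segment difference averaged over both fertility groups was under 1 on the log2 scale.

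**Figure D2:**
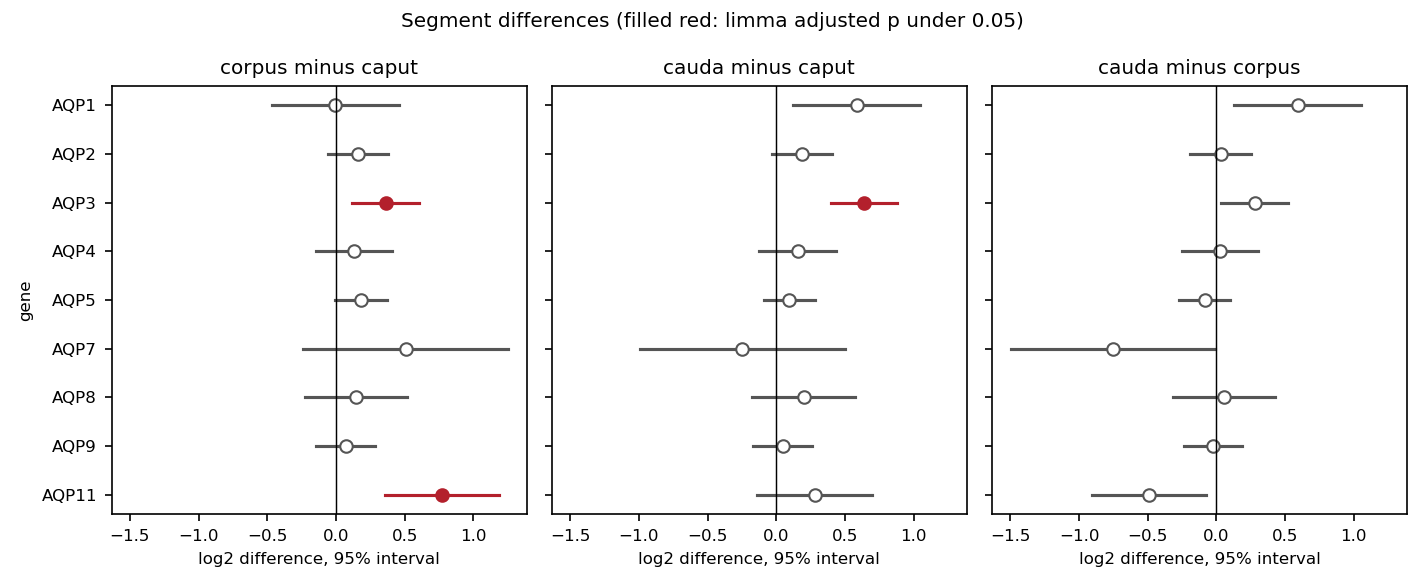
Segment differences (horizontal axis, log2) of the 9 aquaporins, each averaged over both fertility groups, with 95% intervals; filled red points passed the adjusted threshold. AQP3 at 0.36 and AQP11 at 0.77 passed between corpus and caput, AQP3 at 0.64 passed between cauda and caput, and no gene passed between cauda and corpus.

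AQP3 carries water and glycerol, and in the rat epididymis it is known from basal cells. Its signal was 6.04, 5.95 and 6.06 in high caput and 6.16, 6.05 and 6.06 in medium-low caput. In corpus it was 6.69, 6.23 and 6.20 in high and 6.50, 6.48 and 6.39 in medium-low bulls. All 6 corpus arrays lay above all 6 caput arrays, as for 15.1% of all probe sets. In cauda it reached 6.95, 6.78 and 6.40 in high and 6.43, 6.60 and 7.002 in medium-low bulls, also above every caput array, as for 15.6% of all probe sets. Cauda and corpus overlapped.

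The mean of AQP3 went from 6.06 ± 0.0676 in caput to 6.69 ± 0.258 in cauda (SD, n = 6 each), a 1.56-fold rise with a 95% interval of 1.32 to 1.84 (limma adjusted p = 0.000478). The rise was 0.69 in high (SE 0.161, adjusted p = 0.00573) and 0.59 in medium-low bulls (SE 0.161, adjusted p = 0.0175), comparisons in which 22.7% and 20.5% of all probe sets passed. These rises in the separate fertility groups did not differ past the threshold (difference -0.10, 95% interval -0.59 to 0.38). The rise from caput to corpus was smaller, 0.36 (SE 0.114, adjusted p = 0.0244), and was 0.36 and 0.37 in high and medium-low bulls taken alone, neither past the threshold. That call was lost without high corpus replicate 1, at 0.28 (adjusted p = 0.0637), without high caput replicate 2, at 0.35 (0.0533), without medium-low caput replicates 1 and 2 together, at 0.38 (0.0663), without the 3 arrays richest in spermatid genes described below, at 0.32 (0.172), and under each further scaling of the arrays, at 0.24 to 0.29. From corpus to cauda AQP3 differed by 0.28 (SE 0.114, adjusted p = 0.0919).

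Basal cell genes were counted beside AQP3. Of 7 measured basal cell genes 5 rose from caput to corpus, among them the keratins KRT15 at 1.11 and KRT5 at 0.74 and the basal regulator TP63 at 0.64. From caput to cauda 2 of 7 rose, KRT15 at 1.02 and the integrin ITGB4 at 0.91, and KRT5 fell by 0.78 from corpus to cauda. Without medium-low caput replicates 1 and 2 the counts were 7 and 3 of 7. The mean signal of the list was 7.66 to 8.11 in caput, 8.29 to 8.51 in corpus and 8.09 to 8.34 in cauda. Its part in the AQP3 result was not tested.

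AQP7, the other glycerol channel that lies beside AQP3 in the ARS-UCD2.0 cattle assembly with no protein-coding gene between them, is known from spermatids, sperm and fat cells. Its range over the 18 arrays, 2.40, was the widest of the 9 members. Its signal was 7.35, 6.72 and 7.21 in high caput, but 6.34, 8.74 and 8.20 in medium-low caput, which holds both the lowest and the highest AQP7 array of the 18. In corpus it was 8.01, 8.27 and 7.60 in high and 7.61, 8.57 and 7.54 in medium-low bulls. In cauda it was 6.87, 7.73 and 6.65 in high and 6.84, 7.26 and 7.73 in medium-low bulls. All 3 segments overlapped.

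The segment means of AQP7 were 7.43 ± 0.9 in caput, 7.93 ± 0.421 in corpus and 7.18 ± 0.471 in cauda (SD, n = 6 each). No difference passed in the main fit: corpus minus caput was 0.51 (SE 0.348, limma adjusted p = 0.283) and cauda minus corpus was -0.75 (SE 0.348, adjusted p = 0.135). Medium-low caput replicates 1 and 2 lie in neither corpus nor cauda, so the latter stayed at -0.75 without them. It passed in that fit, however, and in the fit of only the arrays compared. In high bulls alone the 3 corpus arrays lay above the 3 caput arrays, with a difference of 0.87 (SE 0.493, adjusted p = 0.24).

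Sperm and spermatid transcripts were high on some of the arrays with high AQP7 and not on others. The mean of 15 measured spermatid and sperm genes was highest in medium-low caput replicates 2 and 3 and medium-low corpus replicate 2, at 8.57, 8.38 and 8.17, and 6.39 to 7.59 on the other 15 arrays. Of the 18 arrays these 3 ranked 1, 4 and 2 for AQP7, at 8.74, 8.20 and 8.57. CRISP2, a sperm protein, was at 10.21, 10.38 and 9.86 on them, and the tail anchoring protein AKAP4 at 8.14, 8.25 and 7.25. Medium-low caput replicate 1, with the lowest AQP7, had the lowest spermatid list of the caput arrays, at 6.61. In contrast, high corpus replicates 1 and 2 had AQP7 at 8.01 and 8.27 with the list at 6.75 and 6.70. Leaving out the 3 arrays of highest spermatid list was an alternative added once the values were known. It removed medium-low caput replicates 2 and 3, high in AQP7, and kept replicate 1, the lowest, as the only array of that group. AQP7 was then higher in corpus than in caput by 1.05, a direction that this choice of caput arrays favours. The difference was 0.15 without medium-low caput replicate 1 and 0.29 without medium-low caput replicates 1 and 2, neither past the threshold. The adipocyte list, 7 genes, lay at 5.77 to 6.27 on all arrays. The part of either list in the AQP7 values was not tested.

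**Figure D3:**
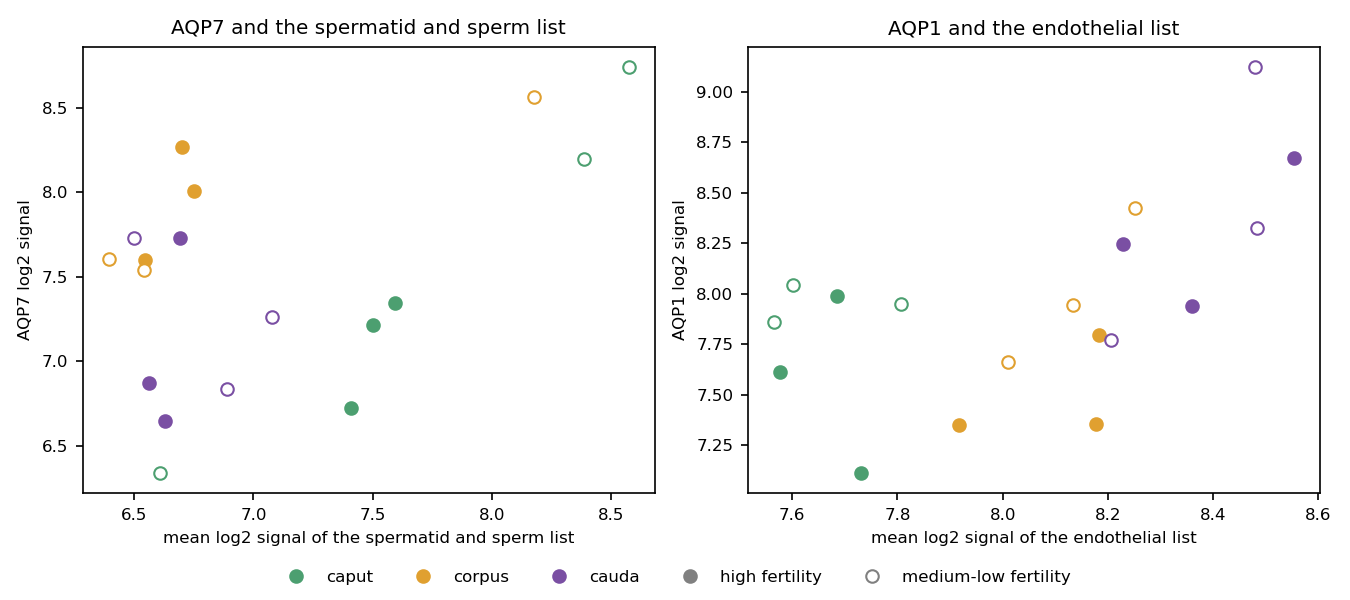
Left, AQP7 log2 signal against the mean log2 signal of 15 spermatid and sperm genes; right, AQP1 log2 signal against the mean of 14 endothelial genes, one point per array, coloured by segment and open for medium-low fertility. The 3 arrays with the spermatid list above 8 have AQP7 at 8.20 to 8.74, and the AQP1 values of cauda extend to 9.12 where the endothelial list lies at 8.21 to 8.55.

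AQP9, which passes water, glycerol, urea and other neutral solutes and lies on the luminal membrane of principal cells in the rat epididymis, had a bright and even probe set. It stood between the 99.2 and the 99.8 percentile of all probe sets on every array. Its signal was 12.89, 12.90 and 12.97 in high caput, 12.70, 12.84 and 12.75 in high corpus and 12.80, 12.66 and 12.59 in high cauda. In medium-low bulls it was 12.30, 12.31 and 12.90 in caput, 12.86, 12.66 and 12.90 in corpus and 12.78, 12.69 and 13.04 in cauda. Outside medium-low caput replicates 1 and 2 all values lay within 12.59 to 13.04.

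Averaged over both fertility groups AQP9 differed by 0.07 between corpus and caput and by 0.05 between cauda and caput, with 95% intervals of -0.14 to 0.29 and -0.17 to 0.26. These differences turned to -0.13 and -0.15 without medium-low caput replicates 1 and 2 (limma adjusted p = 0.304 and 0.231). The averages joined differences of opposite sign, none of them past the threshold. Inside the high bulls all 3 caput arrays lay above all corpus and all cauda arrays, with corpus and cauda minus caput at -0.16 and -0.24 (limma adjusted p = 0.47 and 0.268). In medium-low bulls the same differences were 0.30 and 0.33 (adjusted p = 0.161 and 0.119). Their direction rested on medium-low caput replicates 1 and 2. The remaining medium-low caput array, replicate 3 at 12.90, lay above the medium-low corpus and cauda means of 12.81 and 12.84. It did not lie above the corpus and cauda arrays of the same number, at 12.90 and 13.04. So the separation seen in high bulls was not repeated, and 1 array cannot give a direction for its group.

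AQP11 lies in the endoplasmic reticulum in the tissues where it has been studied and is also known from rat spermatids. Its signal was 5.82, 5.81 and 5.78 in high caput and 4.72, 4.94 and 5.45 in medium-low caput. In corpus it was 6.60, 6.09 and 6.31 in high and 6.27, 5.53 and 6.36 in medium-low bulls, and in cauda 6.06, 6.39 and 5.46 in high and 5.92, 5.13 and 5.25 in medium-low bulls. Of these 18 values 10 were dim, all 6 of caput among them, and a fold between values that may be background is inexact. The corpus arrays of each fertility group lay above the caput arrays of that group.

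From caput to corpus AQP11 rose from 5.42 ± 0.485 to 6.19 ± 0.365 (SD, n = 6 each), a 1.71-fold rise with a 95% interval of 1.28 to 2.28 (limma adjusted p = 0.00739). The difference was 1.02 in medium-low bulls (SE 0.277, adjusted p = 0.0199) and 0.53 in high bulls (SE 0.277, adjusted p = 0.2), where 17.7% and 19.6% of all probe sets passed. These differences did not differ from each other past the threshold (0.49, 95% interval -0.35 to 1.32). Without medium-low caput replicates 1 and 2 the averaged rise was 0.57 and its call was lost (adjusted p = 0.0816). From corpus to cauda the difference was -0.49 (SE 0.196, adjusted p = 0.0831). Of 15 spermatid genes 5 fell and 0 rose from caput to corpus (10 and 0 without medium-low caput replicates 1 and 2), and their part in the AQP11 values was not tested.

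AQP1, the water channel of red cells, vessel walls and, in rodents, the efferent ducts, was highest in cauda. Its signal was 7.11, 7.99 and 7.61 in high caput and 7.86, 8.04 and 7.95 in medium-low caput. In corpus it was 7.35, 7.35 and 7.80 in high and 7.94, 8.42 and 7.66 in medium-low bulls. In cauda it was 7.94, 8.25 and 8.67 in high and 8.33, 9.12 and 7.77 in medium-low bulls. In the high bulls the cauda arrays lay above the corpus arrays, and elsewhere the segments overlapped.

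The AQP1 means were 7.76 ± 0.351 in caput, 7.76 ± 0.404 in corpus and 8.35 ± 0.492 in cauda (SD, n = 6 each). The cauda stood 0.59 above caput (SE 0.217) and 0.59 above corpus (SE 0.217), and both differences missed the threshold (limma adjusted p = 0.0514 and 0.0609). Both passed without medium-low cauda replicate 3, at 0.74 and 0.75 (adjusted p = 0.011 and 0.0148). Over 31 alternative settings the difference of cauda against caput passed in 10 and that of cauda against corpus in 9. Their values there ran from 0.41 to 0.74 and from 0.41 to 0.75.

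Vessel and muscle genes were higher in the same segment. Of 14 endothelial genes 13 rose from caput to cauda and 0 fell, among them PECAM1, an adhesion protein between endothelial cells, at 1.00 and EMCN at 1.53. Without medium-low caput replicates 1 and 2 that count was 10 of 14. The mean signal of the list was 7.57 to 7.81 in caput, 7.92 to 8.25 in corpus and 8.21 to 8.55 in cauda. From caput to corpus 9 of 14 endothelial genes rose, while AQP1 differed by -0.01 with a 95% interval of -0.47 to 0.46. All 11 measured smooth muscle genes rose from caput to cauda, desmin (DES) by 1.53 and SYNPO2 by 2.11. Their part in the AQP1 difference was not tested. Red blood cell genes had 0 of 7 past the threshold between cauda and caput, a count that changed without medium-low caput replicates 1 and 2. From caput to corpus HBA rose by 0.35 and ALAS2 by 0.23.

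The other water channels differed little. AQP5, known from glands and lung, had the narrowest range, 6.78 to 7.35 over all 18 arrays. Its corpus arrays averaged 7.16 ± 0.16 and its caput arrays 6.98 ± 0.108 (SD, n = 6 each), a difference of 0.18 (SE 0.088, limma adjusted p = 0.127). AQP2, the vasopressin-regulated channel of the kidney collecting duct, ranged from 5.52 to 6.34, and 9 of its 18 values were dim. AQP2 in high bulls was 5.80, 5.58 and 5.66 in caput and 5.89, 6.00 and 6.26 in corpus, without overlap, a difference of 0.37 (SE 0.145, adjusted p = 0.0884). In medium-low bulls it was 5.64, 5.91 and 5.84 in caput and 5.76, 5.52 and 5.95 in corpus, a difference of -0.05 (SE 0.145). The difference between these differences was -0.42 (95% interval -0.86 to 0.02) and did not pass (adjusted p = 0.592). AQP2 in cauda was 5.83, 5.90 and 5.77 in high and 5.91, 5.82 and 6.34 in medium-low bulls.

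AQP4, the channel of brain glia and of stomach parietal cells, ranged from 5.45 to 6.30 with 10 of 18 values dim. Its means were 5.74 ± 0.228 in caput, 5.87 ± 0.219 in corpus and 5.90 ± 0.281 in cauda (SD, n = 6 each), and no pair of segments differed past the threshold. AQP8, a water channel that also passes ammonia and hydrogen peroxide and is known from rat germ cells, ranged from 5.66 to 7.11. AQP8 in cauda was 6.08, 5.79 and 7.11 in high and 5.91, 5.92 and 5.91 in medium-low bulls, so the high cauda mean of 6.33 rested on replicate 3. In caput it was 5.80, 5.66 and 5.91 in high and 5.83, 6.43 and 5.89 in medium-low bulls. In corpus it stood at 5.94 to 6.27. No segment difference of AQP8 passed (cauda minus caput 0.20, SE 0.175, limma adjusted p = 0.424).

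The intervals bound what these arrays could show. For AQP2, AQP4 and AQP5 each 95% interval of an averaged segment difference stayed within -0.27 and 0.43. For AQP7 it ran from -0.24 to 1.25 between corpus and caput, so a 2-fold difference in signal lies inside it.

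Fertility was compared within each segment, 3 medium-low against 3 high arrays, to see whether the duct of less fertile bulls carried other aquaporin levels. Limma called 0 of 9 in caput, in corpus and in cauda, where 0.213%, 0.00374% and 0.0112% of all probe sets were called. At an unadjusted p under 0.05 it had 2 of 9 in caput, AQP9 and AQP11, and 0 in corpus and in cauda, against 20.8%, 4.41% and 5.81% of all probe sets.

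**Figure D4:**
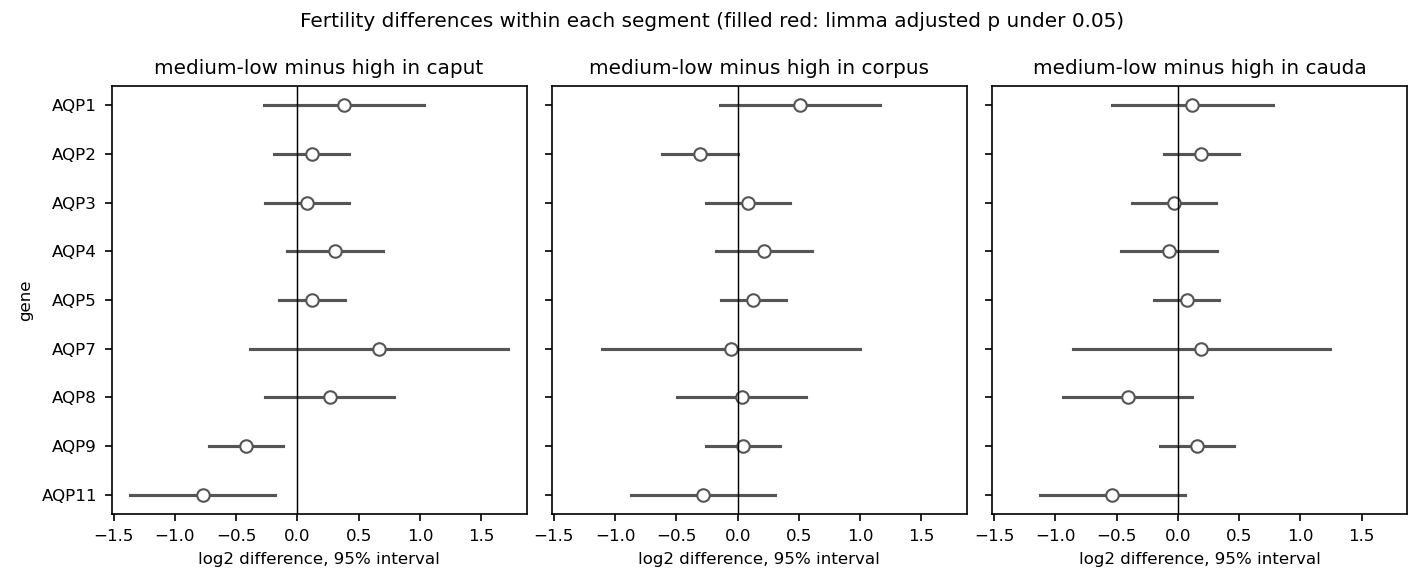
Medium-low minus high differences (horizontal axis, log2) of the 9 aquaporins in caput, corpus and cauda with 95% intervals; no point passed the adjusted threshold. AQP9 at -0.42 and AQP11 at -0.77 in caput are the 2 whose intervals exclude 0.

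AQP9 in medium-low caput averaged 12.51 ± 0.342 against 12.92 ± 0.0439 in high caput (SD, n = 3 each), a difference of -0.42 (SE 0.142, limma adjusted p = 0.112). Replicate 3 of medium-low caput, at 12.90, equalled the high arrays, and replicates 1 and 2, at 12.30 and 12.31, lay below all others. Without replicate 3 the difference was -0.61 (adjusted p = 0.00129), and without replicates 1 and 2 it was -0.02. The loss of replicate 3 also raised the calls over all probe sets from 57 to 4702, so replicates 1 and 2 differ from high caput in many genes besides AQP9. In corpus and cauda the AQP9 difference was 0.04 and 0.15. Whether it varied between the segments was tested by an F test of the segment by fertility interaction, which did not pass for AQP9 (limma adjusted p = 0.552) and passed for 0.00374% of all probe sets.

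AQP11 values in caput did not overlap between the fertility groups. All 3 medium-low caput arrays, at 4.72 to 5.45, lay below the 3 high ones, at 5.78 to 5.82, as arrays did not overlap for 18.5% of all probe sets. The difference was -0.77 (SE 0.277, limma adjusted p = 0.128), and it was -0.28 in corpus and -0.53 in cauda. Averaging the 3 arrays of each replicate number, which takes a number as 1 bull although the labels do not say so, gave 5.51 in medium-low and 6.04 in high bulls, a difference of -0.53 (SE 0.151, n = 3 each) that did not pass (limma adjusted p = 0.537). By that test limma called 0 of 9 members, with 0.00374% of all probe sets called, and AQP11 alone had an unadjusted p under 0.05. Without medium-low caput replicates 1 and 2 the caput difference was -0.36. All 6 caput values were dim, in both fertility groups.

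For the other 7 members the fertility difference lay between -0.41 (AQP8 in cauda) and 0.67 (AQP7 in caput), with unadjusted p above 0.05 throughout. Both limits rested on few arrays. AQP8 in cauda was at -0.02 without high cauda replicate 3. AQP7 in caput was at 1.37 without medium-low caput replicate 1, at 0.17 without medium-low caput replicate 2 and at -0.75 without the 3 arrays of highest spermatid list. The last setting leaves replicate 1 alone in medium-low caput. AQP1 differed by 0.38, 0.51 and 0.12 in caput, corpus and cauda, each with an interval that includes 0. AQP3 differed by 0.08, 0.09 and -0.03, with intervals within -0.37 and 0.43.

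No member reached a difference of 1 between its highest and lowest segment means, the size set for naming genes of like pattern. At 0.5, a size chosen after the data were seen, AQP3 and AQP11 qualified, as an F test over the segments had to pass too. AQP1 and AQP7 differed by 0.59 and 0.75 but missed that test (limma F test, adjusted p = 0.0505 and 0.189). Likeness was the root mean square difference over the 18 arrays after each gene was centred on its own mean. It was taken among 4887 genes with a segment difference of that size that passed the same F test. The genes most like AQP3 were UBE2T at 0.138, OTOL1 at 0.147 and RRAD at 0.155. A wholly flat gene would score 0.312, and the median over those genes was 0.552, below which the nearest of so many lie by choice. UBE2T is a ubiquitin-conjugating enzyme of DNA repair and RRAD a small GTPase. UBE2T went from 8.67 in caput to 9.11 in corpus and 9.23 in cauda. The genes most like AQP11 were CAPRIN2, an RNA-binding protein, at 0.297, ARRDC1, an arrestin relative, at 0.302 and RUNDC3B at 0.306. For AQP11 a wholly flat gene would score 0.522, and the median was 0.697. CAPRIN2 stood at 9.59 in caput, 10.42 in corpus and 9.79 in cauda.

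The remaining measured aquaporins were AQP6, AQP12 and the lens channel MIP. MIP rose in cauda, by 0.36 over caput (SE 0.1, limma adjusted p = 0.0116) and by 0.32 over corpus (SE 0.1, adjusted p = 0.0314), from means of 6.12 and 6.17 to 6.48. AQP6, an intracellular channel, and AQP12 had no segment difference past the threshold, with ranges of 7.11 to 7.76 and 5.64 to 6.22. AQP6, AQP5 and AQP2 follow each other in the ARS-UCD2.0 assembly with no protein-coding gene between neighbours, and none of these 3 passed in any segment comparison.

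Genes around water transport were counted in lists, to be read beside all probe sets, of which 19.5% rose and 13.7% fell from caput to corpus and 17.2% rose and 15.1% fell from caput to cauda. Of 17 measured sodium, anion and acid-base transport genes, 4 rose and 6 fell from caput to corpus, and 8 rose and 4 fell from caput to cauda. The sodium channel subunit SCNN1A rose by 3.50 from caput to cauda, while the proton exchanger SLC9A2 fell by 2.10. Carbonic anhydrase CA2 fell by 2.75, and it fell by 1.40 without medium-low caput replicates 1 and 2, where its signal was 12.27 and 11.89. The chloride channel CFTR fell by 3.82 from caput to corpus and the anion exchanger SLC26A4 rose by 2.61. The list's median difference was 0.10 between corpus and caput and 0.32 between cauda and caput. Without those 2 arrays 5 rose and 5 fell into corpus, with a median of -0.06, and 6 rose and 4 fell into cauda.

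Of 14 osmolyte and urea genes 6 rose and 2 fell from caput to corpus, and 7 rose and 3 fell from caput to cauda, with medians of 0.18 and 0.23 against 0.06 and 0.03 over all probe sets. The urea transporter SLC14A1 rose by 2.58 into corpus and fell by 1.61 from caput to cauda. SLC5A3, which imports inositol, fell by 2.14 from caput to corpus. The osmosensitive channel TRPV4 rose by 1.88 from caput to cauda. The kinase SGK1 rose by 1.32 and the taurine transporter SLC6A6 by 1.28 from caput to cauda. Without medium-low caput replicates 1 and 2 the counts were 5 up and 3 down, and 6 up and 4 down.

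Glycerol is the second solute of AQP3, AQP7 and AQP9. Of 13 measured genes that handle it, 6 fell and 1 rose from caput to corpus, and 7 fell and 1 rose from caput to cauda, with medians of -0.57 and -0.59 against 0.06 and 0.03 over all probe sets. Glycerol kinase GK fell by 1.98 from caput to cauda, and without medium-low caput replicates 1 and 2 it fell by 3.03. The acyltransferase GPAM fell by 2.74 and the triglyceride lipase PNPLA2 fell by 1.15. In corpus the acyltransferase GPAT3 rose by 0.98 over caput. Without those 2 arrays 7 fell and 1 rose into corpus and 8 fell and 0 rose into cauda.

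Of 17 genes for the vasopressin and cyclic AMP control that is known for AQP2 in kidney, 7 rose and 2 fell from caput to corpus and 6 rose and 2 fell from caput to cauda, where 33.2% and 32.2% of all probe sets passed. The adenylyl cyclase ADCY6 rose by 1.27 and 1.04 and the anchoring protein AKAP11 by 0.76 and 0.74. Without medium-low caput replicates 1 and 2 the counts were 6 up and 1 down, and 5 up and 1 down. Of 7 genes for steroid receptors and their target GREB1, 6 rose from caput to cauda and 0 fell, with a median of 1.05 against 0.03 over all probe sets. The estrogen receptors ESR1 and ESR2 rose by 1.05 and 1.33 and the glucocorticoid receptor NR3C1 by 1.09. Without those 2 arrays 4 of 7 rose, with a median of 0.64. In the same comparison 32.2% of all probe sets passed, all 11 smooth muscle genes rose by 1.06 to 2.11 and 13 of 14 endothelial genes rose, and their part in this list was not tested. Within segments, no gene of these 5 lists passed between the fertility groups.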

How the data were processed

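Per the labels' protocols, RNA purified on columns was labelled with biotin from an input of 200 ng. The deposited values are log2 signals, 1 per probe set and array, normalized by the authors with RMA per the submitters' processing notes, which also name Affymetrix Expression Console and Partek 6.5 without a role. The genome build behind the probe sets is not given in the sources used here. Values ran from 2.56 to 14.5 and array medians from 7.26 to 7.39. No value was changed or filtered out, no 2 arrays were identical, and the number of arrays limits the precision.

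Probe sets were named through the platform annotation, and all 9 members matched the ARS-UCD2.0 gene table by gene number. One limma 3.58.1 model (R 4.3.3) of 6 group means with empirical Bayes moderation gave all contrasts. Segment differences weight both fertility groups equally. The fertility difference over segments used 6 means by replicate number. The model was tested on simulated data with independent arrays. It recovered 63% of differences of 0.5 and 94% of differences of 1 between cauda and caput. In the caput fertility comparison it recovered 24% and 70%, so a missed call there does not show that a difference was absent. Since the labels do not say that a number marks 1 bull, the step with means by replicate number assumes it. The other main fits did not use the numbers, and among the alternatives the replicate blocks did.

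The members, the gene lists and the arrays singled out were chosen with earlier results of these data known. Named genes were all 9 members, a choice of passing genes per list, and the 3 genes most like a qualifying member. The choice within a list did not always take the largest differences. Alternatives were a filter on dim probe sets, 3 further scalings, array weights, another prior, another call rule, 1 probe set per gene, fewer arrays, replicate blocks (statmod 1.5.0) and arrays left out.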

Additional observations from a re-analysis of the deposited data

Results flagged for a closer look

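A value was singled out when its gap to the nearest array of its segment passed Dixon's 95% limit for 6 values, which chance does for about 1 in 20 groups. Of 27 gene and segment groups 3 did so. AQP8 in cauda stood at 7.11 on high cauda replicate 3, and at 5.79 to 6.08 on the other 5 arrays. AQP8 in caput stood at 6.434 on medium-low caput replicate 2, and at 5.66 to 5.91 on the others; that array also had the highest AQP7 and the highest spermatid list. AQP2 in cauda stood at 6.342 on medium-low cauda replicate 3, and at 5.77 to 5.91 on the others. No member's fertility difference varied between segments past the threshold.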

How the results depend on the processing

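Of 1682 member values recomputed under alternatives, 1631 kept their side of the threshold, 40 gained a call and 11 lost one; none of the called values changed sign, and 49 uncalled ones did. The count of 2 members past the threshold between corpus and caput was 1 with array medians subtracted, after quantile normalization and after cyclic loess (AQP3 lost). It stayed 2 without the 3 arrays of highest spermatid list, with AQP7 gained and AQP3 lost. It was 0 for an unadjusted p under 0.05 with a 2-fold difference and 0 without medium-low caput replicates 1 and 2, and 1 to 2 with single arrays left out. Between cauda and caput the count of 1 became 2 without dim probe sets, with array weights, with a trended and robust prior and with 1 probe set per gene (AQP1 gained), 0 under the 2-fold rule, and 1 to 2 without single arrays. Between cauda and corpus the count of 0 became 1 with array medians subtracted, array weights or 1 probe set per gene (AQP1, higher), after quantile or cyclic loess normalization (AQP3, higher), and with only the arrays compared or without medium-low caput replicates 1 and 2 (AQP7, lower). It was 2 without the 3 arrays of highest spermatid list and 0 to 2 without single arrays. In the caput fertility comparison 0 became 2 (AQP9 and AQP11, lower) with array weights or without those 3 arrays, and 0 to 2 without single arrays, the 2 being reached without medium-low caput replicate 3. The segment by fertility count of 0 became 1 (AQP9) with array weights (adjusted p = 0.0207) or without those 3 arrays (0.0283), and 0 to 1 without single arrays. The fertility count over the segments was 0 without any replicate number. Leaving out medium-low caput replicates 1 and 2, or the 3 arrays of highest spermatid list, leaves 1 array in medium-low caput. Calls and counts under those settings, here and below, rest on that array for its group. The cause of these changes was not tested.

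With the replicate block, as a random or a fixed term, the members past the threshold between cauda and caput numbered 2 and between cauda and corpus 1, AQP1 gained each time. In all 18 same-numbered pairs the array of the earlier segment correlated best with its own number in the later segment. Read the other way, medium-low corpus replicate 3 was closer to caput replicate 1 (r = 0.09) than to caput replicate 3 (r = 0.07). Of the pairs 17 of 18 had r above 0.1, a hint from the data and not from the labels. The pairs ran from 0.07 to 0.55, and as not every pair was above 0.1 the numbers were not treated as pairs. No paired analysis was possible for fertility within a segment, because each bull gives 1 array there.

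Over all probe sets the 57 calls of the caput fertility comparison became 165 without dim ones, 25 after quantile and 35 after cyclic loess normalization, 4976 with array weights, 94 with the other prior, 428 with 1 probe set per gene, 2 with only the arrays compared, 10 with the fixed block, 3 without medium-low caput replicates 1 and 2, 3616 without the 3 spermatid-rich arrays and 2 to 4702 without single arrays. The 2-fold rule gave 805 there, and 1115, 1586 and 1049 segment calls against 8881, 8629 and 6511. The corpus and cauda fertility counts of 1 and 3 ran from 0 to 7 and 1 to 5 without single arrays, and to 35 and 50 under the 2-fold rule. No member has a second probe set, so that alternative was not run, and dim signals limit AQP2, AQP4 and AQP11.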
